A study of Homo sapiens with 8 samples.

Results

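The B cell receptor complex and its proximal signalosome were followed here through 9 genes: CD79A, CD79B, CR2, CD81, LYN, SYK, BTK, BLNK and PLCG2. The genes were taken by symbol from a table of 25066 genes, all 9 were found, and all 9 were above the level filter that kept 12533 genes for testing. RNA had been sequenced from TMD8, a human lymphoma cell line of the ABC type (activated B cell-like) of diffuse large B cell lymphoma (DLBCL). All cells carried lentivirally delivered Cas9. The groups were sgKLHL14 cells with ibrutinib, sgKLHL14 cells with DMSO, sgCTRL cells with ibrutinib and sgCTRL cells with DMSO, with 2 libraries in each of the 4 groups. sgKLHL14 is a guide RNA against KLHL14 and those cells were labelled KLHL14(-/-), while sgCTRL is a control guide and those cells were labelled KLHL14(+/+). Ibrutinib, a covalent inhibitor of the kinase BTK, was given at 2 nM for 24 h, and DMSO is its solvent. The labels do not say whether the guide-bearing cells were clones or pools, nor whether the replicate libraries were grown as independent cultures. All p-values below thus reflect the spread between libraries, pooled over the 4 groups and moderated over genes. Part or all of that spread may be technical.

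The B cell receptor is a membrane immunoglobulin that binds antigen and is held in a complex with the signalling chains CD79A and CD79B. Tyrosines in the activation motif (ITAM) of each chain are phosphorylated by LYN, a SRC-family kinase, and then bind the kinase SYK. SYK phosphorylates the adaptor BLNK, on which BTK and the phospholipase PLCG2 come together. PLCG2 then cleaves a membrane lipid into second messengers that release calcium and activate protein kinase C and the NF-kB pathway. CR2, the receptor for complement fragments, and CD81, a tetraspanin, belong to the co-receptor that lowers the threshold of the signal. Activated B cell-like lymphomas depend on chronic signalling through this complex, and TMD8 is known to carry a mutated CD79B allele, which counts per gene do not show.

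The coding stretches that define the receptor chains and the drug target are shown first, since the results below turn on CD79A, CD79B and the pathway that ibrutinib blocks. They were read from the GENCODE v29 transcripts of GRCh38, not from these libraries. Capitals mark the codons of the ITAM tyrosines, codons 188 and 199 of CD79A and codons 197 and 208 of the listed CD79B transcript, and the codon of the cysteine of BTK to which ibrutinib binds, codon 481.
CD79A: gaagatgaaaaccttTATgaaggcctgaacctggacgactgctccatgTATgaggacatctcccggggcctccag
CD79B: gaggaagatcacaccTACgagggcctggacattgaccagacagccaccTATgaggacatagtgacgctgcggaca
BTK: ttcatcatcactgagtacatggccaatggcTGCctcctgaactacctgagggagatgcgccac
The pattern of the tyrosine pair was found once in each receptor chain and, as letters only, once in CD81, and the listed CD79B transcript encoded 230 residues, against 226 in CD79A and 659 in BTK.

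Promoters are shown for 3 members that rose with ibrutinib and for CR2, which did not, and were read from RefSeq (GRCh38.p14, from 250 bases before to 50 after the listed start). Entries were found for CR2, SYK, BLNK, PLCG2, CD79A and BTK and searched on both strands for 3 short motifs: the octamer ATGCAAAT, bound by OCT proteins, the EBF core CCCNNGGG and the ETS core GGAAGT, whose family includes the B cell factor PU.1. Of the other members, CD79B and CD81 had no entry, and LYN was left out of the search. An EBF core can share its last bases with an ETS core, which happened in none of the windows searched. Capitals mark the ETS core.
CD79A promoter, chr19:41877029-41877328, plus strand: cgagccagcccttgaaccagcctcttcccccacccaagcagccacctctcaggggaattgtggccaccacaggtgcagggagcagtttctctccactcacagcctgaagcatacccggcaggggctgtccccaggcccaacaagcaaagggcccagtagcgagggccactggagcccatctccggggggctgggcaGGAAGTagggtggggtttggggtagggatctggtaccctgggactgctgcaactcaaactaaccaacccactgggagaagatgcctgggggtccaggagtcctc
BLNK promoter, chr10:96271520-96271819, minus strand: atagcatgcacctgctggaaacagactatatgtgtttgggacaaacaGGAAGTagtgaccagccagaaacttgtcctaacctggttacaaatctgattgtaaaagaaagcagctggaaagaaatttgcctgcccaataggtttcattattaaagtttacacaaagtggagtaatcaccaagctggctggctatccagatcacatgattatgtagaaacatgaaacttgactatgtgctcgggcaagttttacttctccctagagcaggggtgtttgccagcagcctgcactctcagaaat
PLCG2 promoter, chr16:81738791-81739090, plus strand: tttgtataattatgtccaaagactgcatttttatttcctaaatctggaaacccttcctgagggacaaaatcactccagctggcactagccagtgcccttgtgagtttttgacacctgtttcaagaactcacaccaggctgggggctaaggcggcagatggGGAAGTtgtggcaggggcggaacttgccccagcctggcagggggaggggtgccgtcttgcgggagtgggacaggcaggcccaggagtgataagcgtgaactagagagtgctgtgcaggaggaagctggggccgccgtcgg
CR2 promoter, chr1:207454078-207454377, plus strand: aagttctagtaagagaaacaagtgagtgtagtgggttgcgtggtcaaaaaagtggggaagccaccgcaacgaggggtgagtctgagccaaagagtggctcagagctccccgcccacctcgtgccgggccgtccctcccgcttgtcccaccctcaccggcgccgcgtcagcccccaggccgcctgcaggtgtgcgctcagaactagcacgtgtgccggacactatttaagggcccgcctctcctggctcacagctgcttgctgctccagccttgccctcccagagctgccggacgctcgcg
Relative to the start site, the ETS core began at position -54 in CD79A, -203 in BLNK and -90 in PLCG2, and its letters were not in the CR2 window. It was also in 1 of 3 SYK windows and 1 of 2 BTK windows, so that 3 windows of genes that rose with ibrutinib lacked it as CR2 did. It was present in 22.8% of 35116 promoters of this length, the EBF core in 19.1% and the octamer in 1.77%. Among the members, the EBF core was found in 1 BTK window and the octamer in none of the windows searched. These matches describe letters and were not tested for binding.

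The library totals ran from 12333876 to 23467110 reads. Within groups, log2 levels of the fitted genes correlated at 0.994 to 0.996, and counts differed beyond sampling noise (chi-square over its degrees of freedom, 2.19 to 8.20), so no pair was treated as repeat deposits of 1 library, which does not show that the libraries were separate cultures. KLHL14, the guide's target and a substrate adaptor for ubiquitin ligation, had log2 levels of 13.16 and 13.16 in sgKLHL14 cells with ibrutinib, 12.19 and 12.33 in sgKLHL14 cells with DMSO, 12.30 and 12.30 in sgCTRL cells with ibrutinib, and 12.07 and 12.06 in sgCTRL cells with DMSO. No library labelled sgKLHL14 had less of this mRNA than the sgCTRL libraries of the same treatment, and counts per gene do not show whether the reading frame was cut, so directions by guide are given for the libraries as labelled. B cell markers (13 genes, 12 of them fitted) summed to 9040 to 9370 RPM (reads scaled to a common library total) in sgKLHL14 cells with ibrutinib, 6080 to 6420 in sgKLHL14 cells with DMSO, 9320 to 9490 in sgCTRL cells with ibrutinib and 6530 to 6780 in sgCTRL cells with DMSO. T cell markers (10 genes) summed to 8.67 to 9.49 RPM in the ibrutinib libraries and 6.00 to 7.20 in the DMSO libraries, with CD3D, CD3E and TRAT1 at 0 in all 8. Myeloid markers (10 genes) summed to 0.811 to 1.73 RPM in ibrutinib and 0.810 to 1.13 in DMSO, with MPO, S100A8 and S100A9 at 0 in all 8. Epithelial, fibroblast and endothelial markers (10 genes) summed to 16.7 to 18.6 RPM in ibrutinib and 14.3 to 17.6 in DMSO, with KRT19 and CDH5 at 0 in all 8.

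The first question was what BTK inhibition did to the mRNA of the pathway it blocks. With ibrutinib most of the receptor and signalosome genes rose in both kinds of cell. CD79B more than doubled, CD81, CD79A, SYK and PLCG2 rose by about 1.25-fold to 1.53-fold, BLNK and BTK by less in sgCTRL cells, and LYN fell in sgCTRL cells. In sgKLHL14 cells 7 of the 9 genes rose and 0 fell, where 19.9% of the 12533 genes tested rose and 19.4% fell. In sgCTRL cells 7 rose and 1, LYN, fell, where 18.1% of all genes rose and 17.0% fell. Averaged over guides, 7 rose and LYN fell, where 27.0% of all genes rose and 25.4% fell. A gene was said to rise or fall where its Benjamini-Hochberg adjusted p over all fitted genes was under 0.05 in limma. Whether the libraries of 2 groups overlapped is given below as a description only. With 2 libraries against 2, groups can separate without a change, and the share of all genes that did so was not counted. The median log2 change of the 9 genes was 0.37 in sgKLHL14 cells and 0.33 in sgCTRL cells, and that of all genes fitted was 0.010 and 0.018. In bulk RNA a change in the number of cells with a transcript and a change in the RNA of each cell cannot be told apart.

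Together the 9 genes took 0.435% and 0.444% of all reads in sgKLHL14 cells with ibrutinib and 0.346% and 0.344% in sgKLHL14 cells with DMSO. In sgCTRL cells they took 0.432% and 0.434% with ibrutinib and 0.359% and 0.348% with DMSO. Each of the 4 ibrutinib libraries was above all 4 DMSO libraries in this share, which does not depend on the authors' scaling.

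**Figure D1:**
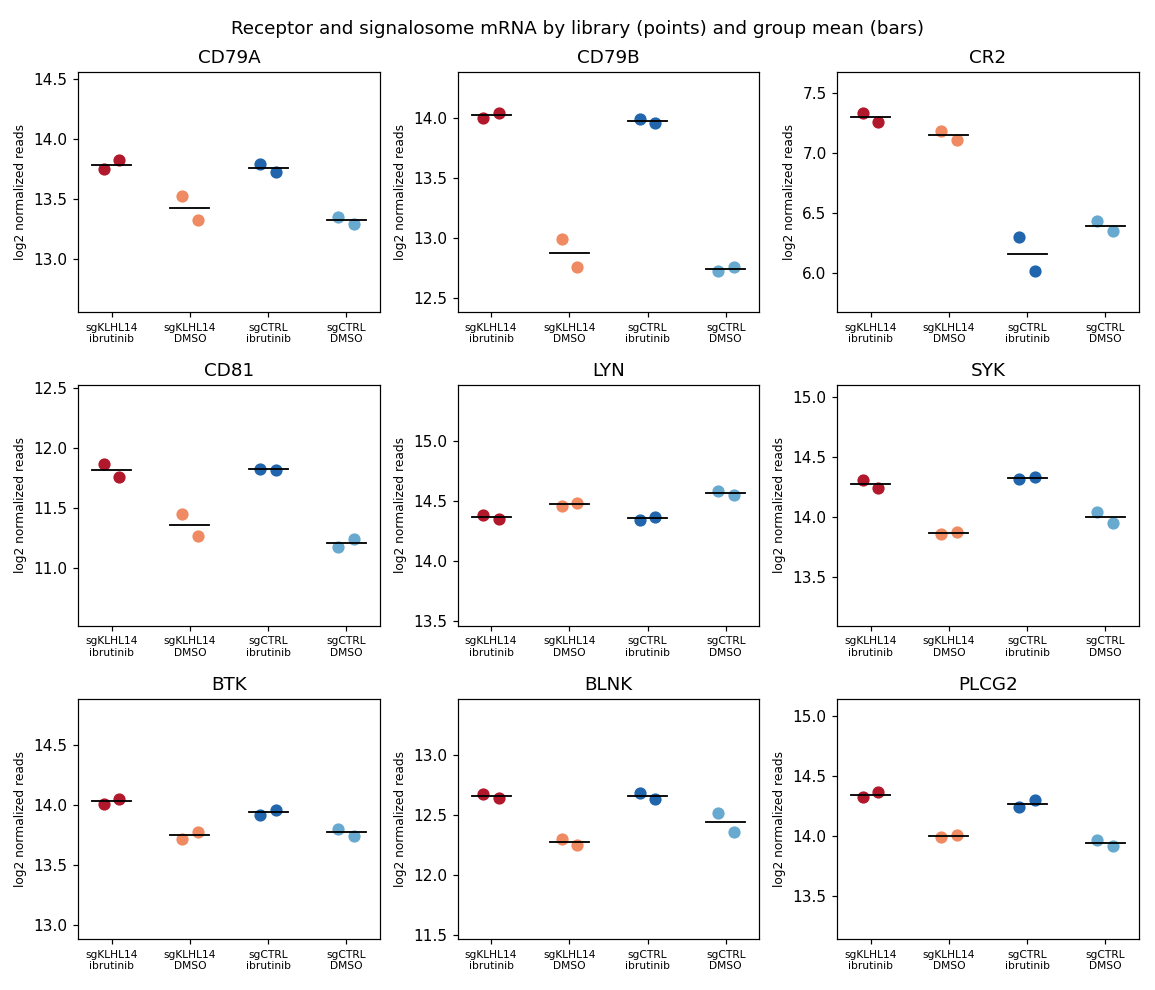
Deposited log2 normalized reads (y axis, with the same height of log2 units in every panel) of the 9 genes in the 8 libraries (points), with group means as bars. The ibrutinib libraries sit above the DMSO libraries of the same guide for CD79A, CD79B, CD81, SYK, BTK, BLNK and PLCG2 and below them for LYN, while CR2 separates by guide.

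CD79B, the receptor chain also known as Ig-beta, had deposited log2 levels of 14.00 and 14.05 in sgKLHL14 cells with ibrutinib, against 12.99 and 12.76 in sgKLHL14 cells with DMSO. In sgCTRL cells it had 14.00 and 13.96 with ibrutinib, against 12.73 and 12.76 with DMSO. All 4 ibrutinib libraries lay far above every DMSO library, and the DMSO libraries of sgKLHL14 cells were the furthest apart. The log2 change was 1.15 ± 0.067 (SE, n = 2 against 2; 2.21-fold; limma adjusted p = 1.62e-10) in sgKLHL14 cells and 1.24 ± 0.067 (2.36-fold; adjusted p = 6.38e-11) in sgCTRL cells. The SE, here and for the members below, is that of the limma fit, pooled over the 4 groups and moderated over genes. It is not the spread of the libraries compared. Their SD was 0.030 with ibrutinib and 0.165 with DMSO in sgKLHL14 cells, and 0.023 with either in sgCTRL cells. In the signed order of log2 changes averaged over guides, where genes that fell come lowest, CD79B stood above 98.6% of the genes fitted. An annotated gene of the same strand, AC127029.3, overlaps 288 bases of the CD79B exons in GENCODE v29 and is not listed in the table, so reads from the shared bases cannot be assigned.

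CD79A, the partner chain Ig-alpha, rose by less. Its log2 levels were 13.75 and 13.82 in sgKLHL14 cells with ibrutinib, against 13.52 and 13.32 in sgKLHL14 cells with DMSO, and 13.80 and 13.72 in sgCTRL cells with ibrutinib, against 13.35 and 13.29 in sgCTRL cells with DMSO. The ibrutinib and DMSO libraries did not overlap with either guide, and came closest in sgKLHL14 cells, where 1 DMSO library was high. The log2 change was 0.37 ± 0.066 (SE, n = 2 against 2; 1.29-fold; limma adjusted p = 0.000208) in sgKLHL14 cells and 0.44 ± 0.066 (1.35-fold; adjusted p = 3.98e-05) in sgCTRL cells. The call in sgKLHL14 cells held in 18 of 19 alternatives (adjusted p from 2.31e-05 to 0.0563) and ended without the level filter.

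The order of the 2 chains per length turned with ibrutinib. On the RPKM scale, reads scaled to the length of the listed transcript and to the library total, CD79B was at 489 ± 15.2 in sgKLHL14 cells with ibrutinib, where CD79A was at 414 ± 18.7 (SD, n = 2 libraries each, here and below on this scale). In sgKLHL14 cells with DMSO, CD79B was at 220 ± 23.0 and CD79A at 320 ± 27.9. In sgCTRL cells with ibrutinib, CD79B was at 477 ± 7.28 and CD79A at 408 ± 14.2. In sgCTRL cells with DMSO, CD79B was at 203 ± 3.87 and CD79A at 302 ± 7.69. The log2 ratio of CD79B to CD79A per length was 0.26 and 0.23 in sgKLHL14 cells with ibrutinib, against -0.52 and -0.56 in sgKLHL14 cells with DMSO, and 0.21 and 0.25 in sgCTRL cells with ibrutinib, against -0.62 and -0.53 in sgCTRL cells with DMSO. On this scale CD79B was thus the higher of the pair in all 4 ibrutinib libraries and the lower in all 4 DMSO libraries. Which chain was higher rests on the lengths used and on equal counting per base, which was not tested, with 288 CD79B exon bases shared with AC127029.3. The lengths cancel in the change of the ratio between treatments. The ratio was not tested across genes, and 4 libraries against 4 is the number behind this order.

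**Figure D2:**
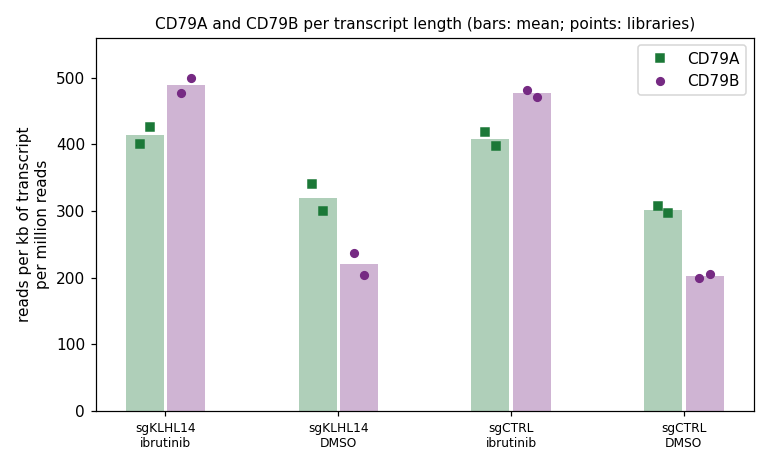
RPKM, reads scaled to transcript length and library total (y axis, from 0), of CD79A (green squares) and CD79B (purple circles) in each library, with bars at the group means. CD79B lies above CD79A in both ibrutinib groups (489 and 477 against 414 and 408) and below it in both DMSO groups (220 and 203 against 320 and 302).

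Of the co-receptor genes, CD81 rose with ibrutinib. Its log2 levels were 11.87 and 11.76 in sgKLHL14 cells with ibrutinib, against 11.45 and 11.27 in sgKLHL14 cells with DMSO, and 11.82 and 11.82 in sgCTRL cells with ibrutinib, against 11.17 and 11.24 in sgCTRL cells with DMSO. No ibrutinib library overlapped a DMSO library. The log2 change was 0.45 ± 0.069 (SE, n = 2 against 2; 1.37-fold; limma adjusted p = 3.39e-05) in sgKLHL14 cells and 0.61 ± 0.069 (1.53-fold; adjusted p = 1.11e-06) in sgCTRL cells. The opposite-strand gene CD81-AS1 shares 30 annotated exon bases with it.

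CR2, the complement receptor CD21, did not pass the test for ibrutinib with either guide. Its log2 change was 0.15 (95% interval -0.23 to 0.53; limma adjusted p = 0.547) in sgKLHL14 cells and -0.23 (-0.61 to 0.15; adjusted p = 0.344) in sgCTRL cells. These intervals are the widest among the 9 genes, on 32 to 124 reads per library.

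LYN, the kinase that starts ITAM phosphorylation and that also phosphorylates inhibitory receptors, was the member with a lower level in ibrutinib. It had log2 levels of 14.38 and 14.35 in sgKLHL14 cells with ibrutinib, against 14.45 and 14.48 in sgKLHL14 cells with DMSO. In sgCTRL cells it had 14.34 and 14.36 with ibrutinib, against 14.58 and 14.55 with DMSO. The groups did not overlap with either guide, with a narrower gap in sgKLHL14 cells, where the change did not pass the test. The log2 change was -0.11 (95% interval -0.22 to 0.012; limma adjusted p = 0.144) in sgKLHL14 cells and -0.21 (-0.33 to -0.095; adjusted p = 0.00621) in sgCTRL cells. The call in sgCTRL cells was lost without sgCTRL ibrutinib replicate 1 (adjusted p = 0.0905) and without replicate 2 (0.0566), and over its 19 alternatives the adjusted p ran from 0.00105 to 0.0905.

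SYK, which docks on the phosphorylated ITAMs, rose in both kinds of cell. Its log2 levels were 14.31 and 14.25 in sgKLHL14 cells with ibrutinib, against 13.86 and 13.88 in sgKLHL14 cells with DMSO, and 14.32 and 14.33 in sgCTRL cells with ibrutinib, against 14.04 and 13.96 in sgCTRL cells with DMSO. All 4 ibrutinib libraries were above all 4 DMSO libraries. The log2 change was 0.41 ± 0.058 (SE, n = 2 against 2; 1.33-fold; limma adjusted p = 1.65e-05) in sgKLHL14 cells and 0.33 ± 0.058 (1.25-fold; adjusted p = 0.000217) in sgCTRL cells.

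BTK, the target of ibrutinib, had log2 levels of 14.01 and 14.05 in sgKLHL14 cells with ibrutinib, against 13.72 and 13.78 in sgKLHL14 cells with DMSO. In sgCTRL cells the levels were 13.92 and 13.96 with ibrutinib, against 13.80 and 13.74 with DMSO. The groups did not overlap, and the gap in sgCTRL cells was the smaller. Its log2 change was 0.28 ± 0.057 (SE, n = 2 against 2; 1.22-fold; limma adjusted p = 0.000585) in sgKLHL14 cells and 0.17 ± 0.057 (1.12-fold; adjusted p = 0.0283) in sgCTRL cells. In sgCTRL cells 13 of 19 alternatives kept BTK past the threshold. The call was lost without the level filter (limma adjusted p = 0.0756), without the variance trend (0.0909) and with reads thinned to equal depth (0.0634). It was also lost without sgCTRL ibrutinib replicate 1 (log2 change 0.19) or 2 (0.145) or sgCTRL DMSO replicate 2 (0.1365).

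The adaptor BLNK, which carries BTK and PLCG2 to each other, had log2 levels of 12.67 and 12.64 in sgKLHL14 cells with ibrutinib, against 12.30 and 12.25 in sgKLHL14 cells with DMSO. In sgCTRL cells it had 12.68 and 12.63 with ibrutinib, against 12.51 and 12.36 with DMSO. The ibrutinib libraries of both guides lay close together and above all DMSO libraries. BLNK rose by 0.38 ± 0.062 on the log2 scale (SE, n = 2 against 2; 1.30-fold; limma adjusted p = 6.67e-05) in sgKLHL14 cells and by 0.22 ± 0.062 (1.16-fold; adjusted p = 0.00963) in sgCTRL cells. The call in sgCTRL cells held in 15 of 19 alternatives. It was lost without the level filter (limma adjusted p = 0.1045) and without the variance trend (0.0703). It was also lost without sgCTRL ibrutinib replicate 1 (log2 change 0.1935) or sgCTRL DMSO replicate 2 (0.142).

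PLCG2, the phospholipase at the end of the proximal chain, shares 318 annotated exon bases with RN7SKP176, which the table does not list. It had log2 levels of 14.32 and 14.37 in sgKLHL14 cells with ibrutinib, against 13.99 and 14.01 in sgKLHL14 cells with DMSO. In sgCTRL cells it had 14.24 and 14.29 with ibrutinib, against 13.97 and 13.91 with DMSO. The ibrutinib and DMSO libraries formed separate sets with a similar gap for each guide. Its log2 change was 0.34 ± 0.057 (SE, n = 2 against 2; 1.27-fold; limma adjusted p = 8.66e-05) in sgKLHL14 cells and 0.33 ± 0.057 (1.26-fold; adjusted p = 0.000163) in sgCTRL cells.

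**Figure D3:**
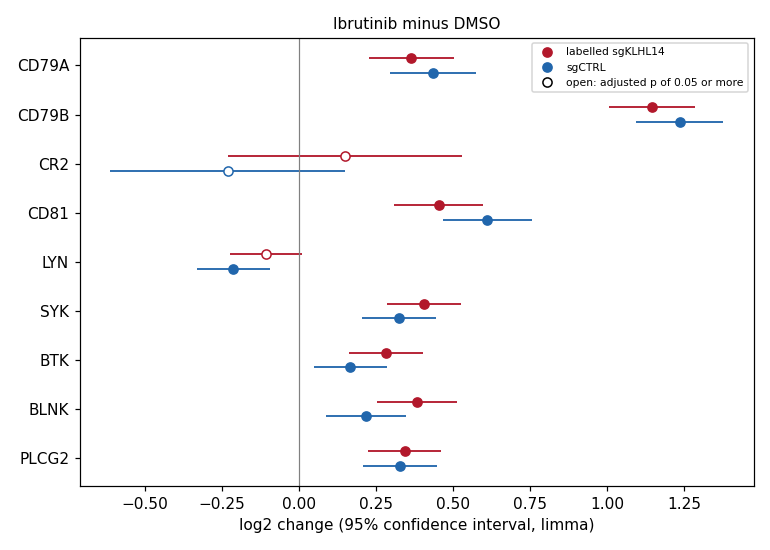
Log2 change of each gene, ibrutinib minus DMSO (x axis), with 95% confidence intervals from limma, for libraries labelled sgKLHL14 (red, upper) and sgCTRL (blue, lower); open points did not pass an adjusted p of 0.05. CD79B stands at 1.15 and 1.24, and the other members that rose lie between 0.17 and 0.61. LYN is below 0, with an interval that includes 0 in sgKLHL14 cells, and CR2 has intervals that include 0 with either guide.

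Per length, the members spanned a wide range of levels. In sgKLHL14 cells with ibrutinib the order on the RPKM scale was CD79B at 489 ± 15.2, CD79A at 414 ± 18.7, LYN at 337 ± 1.89, BTK at 239 ± 7.08, SYK at 146 ± 3.26, BLNK at 133 ± 0.665, PLCG2 at 87.8 ± 2.95, CD81 at 87.0 ± 3.72 and CR2 at 1.36 ± 0.0337. PLCG2 and CD81 were neighbours whose libraries overlapped in that group. In sgCTRL cells with DMSO the order was LYN at 391 ± 5.16, CD79A at 302 ± 7.69, CD79B at 203 ± 3.87, BTK at 201 ± 5.50, SYK at 121 ± 4.88, BLNK at 115 ± 8.31, PLCG2 at 66.9 ± 1.57, CD81 at 57.8 ± 2.12 and CR2 at 0.732 ± 0.0271. There CD79B and BTK overlapped, as did SYK and BLNK. The order was the same in sgKLHL14 cells with DMSO, where LYN led at 362 ± 9.08, and in sgCTRL cells with ibrutinib it differed from that of sgKLHL14 cells with ibrutinib in that CD81, at 88.1 ± 0.129, came before PLCG2, at 83.9 ± 2.21. The places of LYN, CD81 and PLCG2 rest on the length used. With the union of annotated exons (5893 bases in place of 2297), LYN was at 152 ± 2.01 in sgCTRL cells with DMSO, behind CD79A, CD79B and BTK, and at 131 ± 1.72 in sgCTRL cells with ibrutinib, behind SYK as well. On that length PLCG2, at 83.9 ± 2.21, came before CD81, at 62.8 ± 0.0919, in sgCTRL cells with ibrutinib.

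The second question was whether the guide against KLHL14 moved these genes, in the same 8 libraries. Among the 9, CR2 alone passed the test, and it did so in both treatments. CR2 was higher in libraries labelled sgKLHL14, by 2.20-fold in ibrutinib and 1.69-fold in DMSO. In ibrutinib 1 of 9 members rose and 0 fell, where 1.59% of all genes rose and 0.790% fell. In DMSO likewise 1 of 9 rose and 0 fell, where 0.782% of all genes rose and 0.862% fell. The median log2 difference of the 9 genes was 0.029 in ibrutinib and 0.061 in DMSO, and that of all genes was -0.0045 and 0.003.

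CR2 had log2 levels of 7.33 and 7.26 (99 and 70 reads) in sgKLHL14 cells with ibrutinib, against 6.30 and 6.02 (48 and 32 reads) in sgCTRL cells with ibrutinib. In DMSO it had 7.18 and 7.11 (124 and 113 reads) in sgKLHL14 cells, against 6.43 and 6.35 (43 and 70 reads) in sgCTRL cells. All 4 sgKLHL14 libraries were above all 4 sgCTRL libraries. The log2 difference was 1.14 ± 0.18 (SE, n = 2 against 2; limma adjusted p = 0.000825) in ibrutinib and 0.76 ± 0.18 (adjusted p = 0.0394) in DMSO. In ibrutinib the call held in 18 of 19 alternatives (adjusted p from 0.000295 to 0.0865) and ended without the level filter. In DMSO it held in 13 of 19 (0.0159 to 0.317) and ended without the level filter (0.168), without the variance trend (0.0762), and without sgCTRL DMSO replicate 1 (0.179) or 2 (0.139) or sgKLHL14 DMSO replicate 1 (0.317) or 2 (0.0652).

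**Figure D4:**
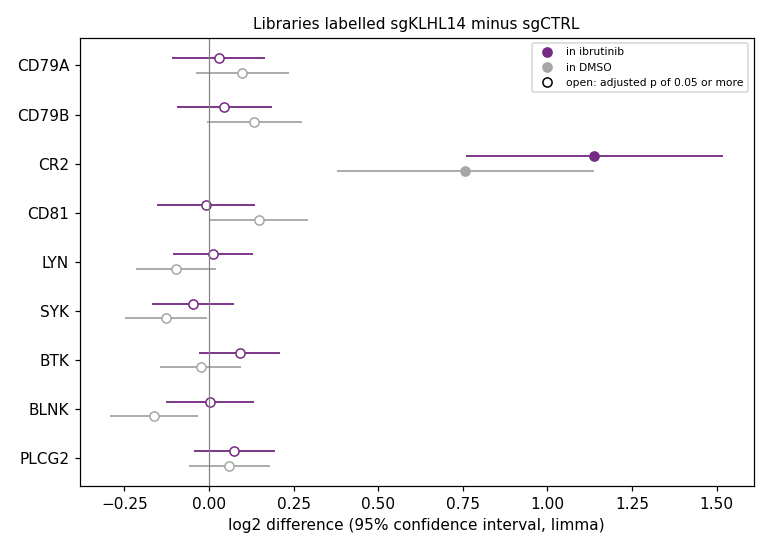
Log2 difference of each gene, libraries labelled sgKLHL14 minus sgCTRL (x axis), with 95% confidence intervals from limma, in ibrutinib (purple, upper) and in DMSO (grey, lower); open points did not pass an adjusted p of 0.05. CR2 stands at 1.14 in ibrutinib and 0.76 in DMSO, and the other 8 genes lie between -0.16 and 0.15.

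The other 8 members gave limits on the difference between the libraries as labelled, and not on the effect of the guide itself. In ibrutinib their log2 differences lay between -0.047 (SYK) and 0.092 (BTK), with limma adjusted p of 0.561 to 0.993. The receptor chains differed by 0.045 for CD79B (95% interval -0.095 to 0.19) and 0.029 for CD79A (-0.11 to 0.17), and their libraries stood close together between guides. In DMSO the differences lay between -0.16 (BLNK) and 0.15 (CD81). CD79B differed by 0.13 there (adjusted p = 0.386, and 0.0288 to 0.988 over 19 alternatives), and passed the test, at 0.25, without sgKLHL14 DMSO replicate 2. BLNK, SYK and CD81 reached unadjusted p of 0.0172, 0.0395 and 0.0452 in limma there, and adjusted p of 0.231, 0.332 and 0.348. With CR2, 4 of the 9 members were under an unadjusted p of 0.05 in DMSO, where 13.8% of all genes were. For BLNK the interval was -0.29 to -0.032, for SYK -0.25 to -0.0068 and for CD81 0.0035 to 0.29.

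The third question was whether the response to ibrutinib differed between the guides. For 0 of the 9 members did the difference in response pass the test in limma, where 0.0239% of all genes (3 of 12533) did. At an unadjusted p under 0.05 the count was also 0 of 9, where 5.69% of all genes passed, so few members would be looked for. With limma-voom on the recovered reads the count at the adjusted threshold was 0 too. The smallest unadjusted p was 0.0762, for BLNK, whose response was larger by 0.16 in sgKLHL14 cells (95% interval -0.019 to 0.35; adjusted p = 0.907). For CD79B the difference in log2 response was -0.090 (-0.29 to 0.11; adjusted p = 0.959), for CD81 it was -0.16 (-0.36 to 0.047; adjusted p = 0.935) and for LYN it was 0.11 (-0.061 to 0.27; adjusted p = 0.936). LYN passed the test for ibrutinib in sgCTRL cells and not in sgKLHL14 cells, and the difference between its responses did not pass. Leaving out CR2, the intervals reached as far as -0.36 (CD81) and 0.35 (BLNK), and differences in response inside a gene's own interval are not excluded for it.

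Other genes of the pathway were counted from lists, to set the 9 members beside them. The lists were chosen with results of these data known. With ibrutinib, averaged over guides, 23 of 65 downstream and companion genes fitted rose (35.4%, against 27.0% of all genes) and 13 fell (20%, against 25.4%), out of 73 listed. In either direction 55.4% of the list passed, near the 52.4% of all genes, with a median log2 change of 0.016, against 0.017 over all genes. DAPP1, a lipid-binding adaptor downstream of phosphoinositide 3-kinase, rose by 0.94 (limma adjusted p = 2.46e-11), PIK3CG, a catalytic subunit of that kinase family, by 1.02 (1.14e-10) and BANK1, a B cell scaffold protein, by 0.60 (4.07e-10). SH3BP2, an adaptor that binds SYK-family kinases, fell by 1.14 (1.41e-09). DAPP1 had log2 levels of 11.17 and 11.09 in sgKLHL14 cells with ibrutinib, against 10.23 and 10.23 in sgKLHL14 cells with DMSO, and 11.34 and 11.27 in sgCTRL cells with ibrutinib, against 10.21 and 10.42 in sgCTRL cells with DMSO.

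Of the negative regulators, 20 of 39 fitted rose (51.3%, against 27.0% of all genes) and 11 fell (28.2%, against 25.4%), out of 45 listed and with a median of 0.25. The 4 with the smallest p were receptors, among them FCRL1, which the list holds although it is not an established inhibitor. CEACAM1 rose by 2.12 (limma adjusted p = 2.23e-14), FCRL1 by 1.55 (1.82e-11), FCRL3 by 0.96 (6.20e-13) and CD72 by 0.80 (2.96e-11). CEACAM1 had log2 levels of 9.69 and 9.76 in sgKLHL14 cells with ibrutinib, against 7.48 and 7.53 in sgKLHL14 cells with DMSO, and 9.89 and 9.83 in sgCTRL cells with ibrutinib, against 7.84 and 7.85 in sgCTRL cells with DMSO.

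Genes known to be induced through the receptor went the other way. Of 22 fitted (28 were listed), 19 fell (86.4%, against 25.4% of all genes) and 2 rose (9.09%, against 27.0%), with a median of -0.76. EBI3, a cytokine subunit, fell by 3.32 on the log2 scale (limma adjusted p = 1.26e-13), EGR2, a zinc finger factor of the early response, fell by 2.58 (2.26e-13), IL10, a cytokine secreted by these lymphomas, fell by 2.50 (1.06e-14) and BATF, an AP-1 family factor, fell by 1.08 (7.89e-12). The 2 that rose were DUSP5, a phosphatase of ERK kinases, by 0.79 (1.42e-11), and CD69, an early activation antigen, by 0.49 (0.00593), both named after their values were seen. EGR2 had log2 levels of 5.83 and 5.89 in sgKLHL14 cells with ibrutinib, against 8.66 and 8.81 in sgKLHL14 cells with DMSO, and 6.71 and 7.00 in sgCTRL cells with ibrutinib, against 9.26 and 9.04 in sgCTRL cells with DMSO. In the ibrutinib libraries EGR2 had 27 to 64 reads and EBI3 had 18 to 41. Of the B cell markers, 10 of 12 fitted rose (83.3%, against 27.0% of all genes) with a median of 0.51. EBF1, a B lineage factor, fell by 0.36. The members' rise thus went beside a rise of most listed B cell markers, whose part in the result was not tested. Of the T cell markers, 3 of 4 fitted also rose (75%, median 0.73) and 0 fell. Of the epithelial, fibroblast and endothelial markers, 2 of 3 fitted rose and 1 fell.

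**Figure D5:**
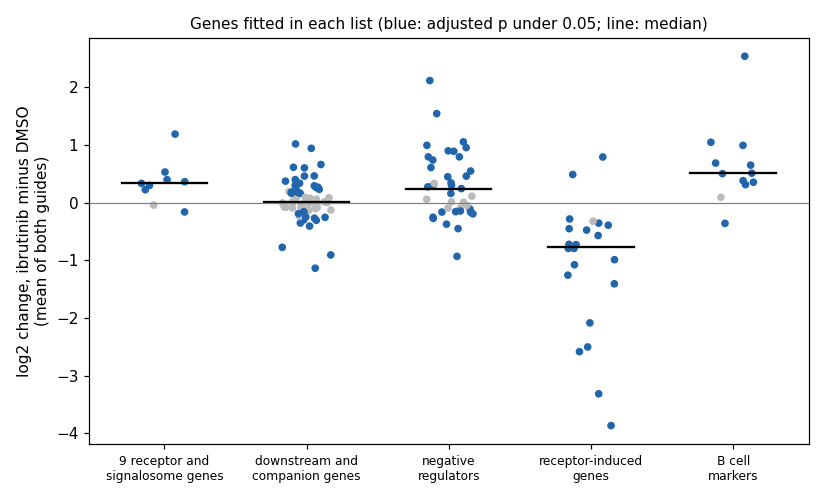
Log2 change with ibrutinib, ibrutinib minus DMSO averaged over guides (y axis), of every fitted gene in 5 lists (x axis); blue points passed an adjusted p of 0.05, grey points did not, and bars mark medians. The members (median 0.34), negative regulators (0.25) and B cell markers (0.51) lie mostly above 0, the downstream genes centre at 0.016 and the receptor-induced genes centre at -0.76.

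By guide, in either direction, 1.64% of all genes passed the test in DMSO and 2.38% in ibrutinib. In DMSO 6.15% of the downstream list, 10.3% of the negative regulators, 4.55% of the receptor-induced genes and 16.7% of the B cell markers passed, and in ibrutinib 7.69%, 7.69%, 27.3% and 33.3% of the same lists. In DMSO 1 of 65 downstream genes was higher in sgKLHL14 libraries and 3 were lower: NFATC1, a calcium-regulated factor (log2 difference -0.45, limma adjusted p = 0.00483), SOS1, a RAS exchange factor (-0.28, adjusted p = 0.0447), and PIK3AP1, an adaptor of phosphoinositide 3-kinase (-0.23, 0.0492). In ibrutinib 3 were again lower: NFATC1 (-0.42, 0.00548), PIK3AP1 (-0.24, 0.0233) and SOS1 (-0.26, 0.0455), the last named after its value was seen. In ibrutinib 2 downstream genes were higher, one of them RASGRP1, a RAS exchange factor that responds to diacylglycerol, by 0.42 (0.0130). Of the negative regulators in DMSO, CD22, an inhibitory lectin, was higher by 0.24 (0.0417), and 3 were lower: CBLB, a ubiquitin ligase (-0.36, 0.0434), DOK3, an inhibitory adaptor (-0.27, 0.0495), and FCRL3 (-0.24, 0.0434). These adjusted p lay near the threshold, as did those of SOS1 and PIK3AP1 in DMSO. The list counts by guide changed with the processing, as given in the last section. In ibrutinib 0 negative regulators were higher, and 3 of 39 were lower: FCRL4, an inhibitory receptor (-0.61, 0.00551), CD5, a co-receptor that dampens the signal (-0.49, 0.0317), and PAG1, a membrane adaptor of the kinase CSK (-0.34, 0.0455).

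Among the receptor-induced genes, CD83, an activation antigen, was lower in sgKLHL14 libraries in DMSO (-0.30, limma adjusted p = 0.0350). In ibrutinib 5 of 22 were higher and 1 was lower in sgKLHL14 libraries. IRF4, a transcription factor on which this lymphoma type depends, was higher by 0.43 (0.00033), IER3 by 0.59 (0.0306) and TNFAIP3, an inhibitor of NF-kB, by 0.26 (0.0233), as were MYC by 0.27 (0.0341) and DUSP5 by 0.24 (0.0394), both named after their values were seen. EGR2 was lower (-0.995, 0.000396). Of the 12 B cell markers fitted, VPREB3, an accessory protein of the pre-B cell receptor, was higher in sgKLHL14 libraries by 1.24 in ibrutinib (0.0107) and 2.70 in DMSO (4.86e-06). VPREB3 rested on few reads, 9 to 215 per library. FCRLA, an Fc receptor-like protein, was higher by 0.37 in ibrutinib (0.000455) and 0.35 in DMSO (0.00167). In ibrutinib POU2AF1, a co-activator of OCT proteins, was also higher, by 0.36 (0.00074), and EBF1 was lower (-0.25, 0.0443). These 4 markers were named after their values were seen. For the difference in response, 0 genes of these lists passed the test in limma, and 12 of 137 (8.76%) did at an unadjusted p under 0.05, against 5.69% of all genes. The medians of the lists by guide lay between -0.13 and 0.11.

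By the likeness of their levels over the 8 libraries, the members whose group means ranged over 0.5 log2 units or more had these nearest genes, given as a description. CD79B went with TCL1B (Pearson r = 0.998) and CD37 (0.998), a co-activator of AKT and a B cell tetraspanin. CD81 went with PICK1 (0.992) and TCL1A (0.992). CR2 went with ENO2, a glycolytic enzyme (0.986), and LPIN1, a phosphatidate phosphatase (0.979). ENO2 was higher by 0.79 in ibrutinib and 0.57 in DMSO in sgKLHL14 libraries, on the same log2 scale. The 8 points are 4 pairs of libraries, and each pair shares its guide and treatment.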

How the data were processed

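Libraries had been made from total RNA with a stranded mRNA kit and sequenced in pairs, per the labels' protocols. Per the submitters' processing notes, bcl2fastq, STAR and HTSeq were used on build hg19. Their versions and settings, the annotation and whether counting used strand were not given in the sources used here. The authors deposited 1 table of log2 values (25066 genes), and its line of library totals entered no test. By a check on the values, each deposited log2 entry was log2 of a whole read count times a factor of its library (99.5% to 100% of values within 0.0006), with 0 reads listed at 0. The table had 0 columns of other samples.

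The 12533 genes with a mean log2 value of at least 4.20 over the 8 libraries entered a linear model of 4 group means (limma 3.58.1, R 4.3.3) whose variance prior followed the mean (4 residual and 14.9 prior degrees of freedom). No pseudocount was needed, since 0 of the fitted genes had a library without reads. Calls took a Benjamini-Hochberg adjusted p under 0.05 over all fitted genes, and the fit was tested on simulated data. Depth was 12333876 to 23467110 reads, and lower genes carry more counting error. The alternatives were no filter, a filter at 6, no variance trend, a robust prior, quantile and median scaling, a pseudocount of 32, limma-voom on recovered reads, reads thinned to equal depth, only the groups compared, a replicate block, each library left out, and, added after seeing the data, exon union lengths. Lengths came from GENCODE v29 and served per-length levels only.

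The members and lists were chosen with earlier results of these data known. Named were all 9 members, KLHL14, up to 4 called genes per list with the smallest p, and the 2 genes most like each member whose group means ranged over 0.5 or more. Some list members are not reported here by name.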

Additional observations from a re-analysis of the deposited data

Results flagged for a closer look

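CR2 was picked out by the order of its libraries, which differed between the 2 kinds of cell. The share of all genes with such an order was not counted, so the order alone does not show a change. Both ibrutinib libraries were above both DMSO libraries in sgKLHL14 cells (log2 levels 7.33 and 7.26 against 7.18 and 7.11), and both were below in sgCTRL cells (6.30 and 6.02 against 6.43 and 6.35). The difference in log2 response was 0.38 (95% interval -0.16 to 0.92; limma adjusted p = 0.936), and over 18 alternatives its adjusted p ran from 0.797 to 1, so it did not pass the test. The values rest on 32 to 124 reads per library.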

How the results depend on the processing

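Over the alternatives, the members' log2 changes kept direction and side of the threshold in 968 cases, lost a call in 20, gained 1 (CD79B by guide in DMSO, adjusted p = 0.0288 without sgKLHL14 DMSO replicate 2) and turned in 19. Averaged over guides, 8 members passed for ibrutinib in all 18 alternatives. Leaving out 1 library gave 5 to 8 members for ibrutinib with sgCTRL, 5 without sgCTRL ibrutinib replicate 1, where LYN, BTK and BLNK lost their calls. By guide in DMSO the count was 0 without the filter on low values, 0 without the variance trend and 0 to 1 with 1 library left out. By guide in ibrutinib it was 0 without the filter. In the reported fit, 52.4% of all genes passed for ibrutinib averaged over guides, 35.1% with sgCTRL and 39.3% with sgKLHL14. By guide 1.64% passed in DMSO and 2.38% in ibrutinib. Shares of all genes in each alternative are not reported here, so the member counts do not show whether the members were steadier than other genes. Groups left with 1 library were assumed to vary like the others.

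Changes that turned were near 0. By guide in ibrutinib, LYN was -0.011 under quantile scaling, and BLNK -0.0015 under median scaling and -0.012 with thinned reads, where CD81 was 0.0011. With 1 library left out, these ranged from -0.0055 to 0.027 for LYN, -0.023 to 0.028 for BLNK, -0.064 to 0.045 for CD81 and -0.008 to 0.065 for CD79A. BTK by guide in DMSO ranged from -0.056 to 0.0065, CR2 for ibrutinib averaged over guides from -0.11 to 0.029, and the differences in response from -0.013 to 0.042 for PLCG2, -0.17 to 0.029 for CD79A and -0.21 to 0.028 for CD79B. The cause was not tested.

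With the replicate number as a block, the member counts were 7 higher and 1 lower for ibrutinib with sgCTRL, 7 higher with sgKLHL14, and 1 higher by guide in either treatment, so it changed none of them. The labels give same-numbered libraries only a shared number, and their deviations correlated at -0.0555 to 0.122. These correlations cannot show whether such libraries shared a batch or culture. The block moved 2 list counts by guide in DMSO, to 7 downstream genes and 9 negative regulators, against 4 and 4. Over all alternatives, list counts by guide ran from 0 to 10 (downstream, 4 in the reported fit), 0 to 9 (negative, 4) and 0 to 3 (induced, 1) in DMSO, and from 0 to 6 (downstream, 5), 0 to 3 (negative, 3) and 0 to 8 (induced, 6) in ibrutinib. For ibrutinib, the downstream count ran from 12 to 36 with sgCTRL (28) and from 16 to 33 with sgKLHL14 (30). Named list genes kept their calls in 467 cases and lost them in 129. CR2 had 32 to 124 reads per library.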
